A study of Mus musculus with 4 samples.

Results

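The 9 genes described here encode channels and a pump subunit of the kinds that move salt and water across the lining of the uterus. They were chosen by symbol: Cftr, the epithelial sodium channel subunits Scnn1a, Scnn1b and Scnn1g, the aquaporins Aqp1, Aqp3, Aqp5 and Aqp8, and the Na/K-ATPase subunit Atp1b1. All 9 were among the 21993 genes of each file. RNA sequencing was done on 4 mouse libraries labelled as uterine NK cells, taken at gd11.5 (day of gestation) from females mated with B6 males by a sort for NK1.1 and CD45 and against CD3. Ncr1Cre mice (2 libraries) carry Cre recombinase under the NK-cell gene Ncr1, so Cre is expected in cells that express that gene, and control mice (2 libraries) lack Cre. Both groups share the rest of their genotype. The age of the mice is not given in the sources used here. Whether replicates are different mice is not stated in the labels, so p-values here cover only how far the libraries differ from each other, which can be technical variation.

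Levels are given in FPKM, fragment numbers corrected for transcript length and sequencing depth, a scale on which levels of different genes can be set side by side. Summed FPKM was 460108 and 468192 in Ncr1Cre and lower, at 384852 and 396770, in control. The depth estimated from the low values was 20950000 to 38540000 fragments. The labelled cell type was checked against 9 NK-cell markers. Of these, 6 had a mean below 1 FPKM, among them Ncr1, listed at 0 to 0.36 FPKM, and Klrb1c, which encodes NK1.1, at 0.45 to 0.97. Ptprc, which encodes CD45, was at 2.57 to 5.16 FPKM. The 3 NK-cell markers with a higher mean were Il2rb, Nkg7 and Gzma. Il2rb was higher in Ncr1Cre, at 9.17 and 8.67 FPKM against 6.50 and 6.54 in control. Nkg7 was at 4.03 to 5.05 FPKM and Gzma at 2.53 to 3.69 over the 4 libraries. The 9 NK-cell markers summed to between 16.2 and 21.9 FPKM. The 12 epithelial markers, led by Krt8, Krt18 and Cldn4, summed to 2332 and 2327 FPKM in Ncr1Cre and to 603 and 585 in control, and none of them was listed at 0. The 10 stromal markers, led by Col1a1, Sparc and Col1a2, summed to 14570 in each Ncr1Cre library, and to 32690 and 33240 in the controls.

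Fluid in the uterine lumen is set by secretion and absorption across its epithelium. CFTR is a chloride and bicarbonate channel opened by cyclic AMP, and water follows the anions it lets into the lumen. The epithelial sodium channel ENaC, built of alpha, beta and gamma subunits, takes sodium back from the lumen, and water follows it out. Aquaporins are the water pores, and the Na/K-ATPase, a catalytic alpha subunit with a beta subunit that brings it to the membrane, keeps the sodium gradient that drives both flows. In the pregnant uterus the removal of luminal fluid accompanies the attachment of the embryo.

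Channel and pump genes were mostly higher in the Ncr1Cre libraries. Of the 9 genes, 8 reached a mean of 1 FPKM over the 4 libraries and were tested, and 6 rose, 1 fell and 1 did not pass (limma on log2(FPKM + 1), Benjamini-Hochberg adjusted p under 0.05 over all 11762 genes tested). Among all genes tested 48.5% were called, 30.9% as higher and 17.6% as lower. Aqp8 rose most, from 155 ± 1.58 to 832 ± 34.2 FPKM (mean ± SD, n = 2), and Aqp1 was the gene that fell, from 26.2 ± 0.61 to 14.9 ± 0.28. The median log2 fold change of the 8 tested genes was 1.26, beside 0.11 over all genes tested. Cftr passed this filter only through the Ncr1Cre libraries, where it was higher, so its call is no independent part of the count. Scnn1g, the gamma subunit of ENaC, stayed below the filter and is given by its values. In each of the 8 tested genes the libraries of the genotypes did not overlap, which 76.2% of all tested genes shared. A rule of size asks for means of log2(FPKM + 1) that differ by 1 or more and for no overlap. By this rule 4 genes were higher (Aqp8, Aqp5, Scnn1b and Atp1b1) and 0 lower, while 12.5% of all tested genes met it, 9.81% as higher and 2.7% as lower. Cftr and Aqp3, with FPKM means that differed 3.33-fold and 2.24-fold, missed the rule on this scale, which shrinks changes of low genes. Rescaling the libraries to a common median turned the calls over all genes from 3638 higher and 2071 lower to 2662 and 3037, with the 9 genes still at 6 higher and 1 lower.

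**Figure D1:**
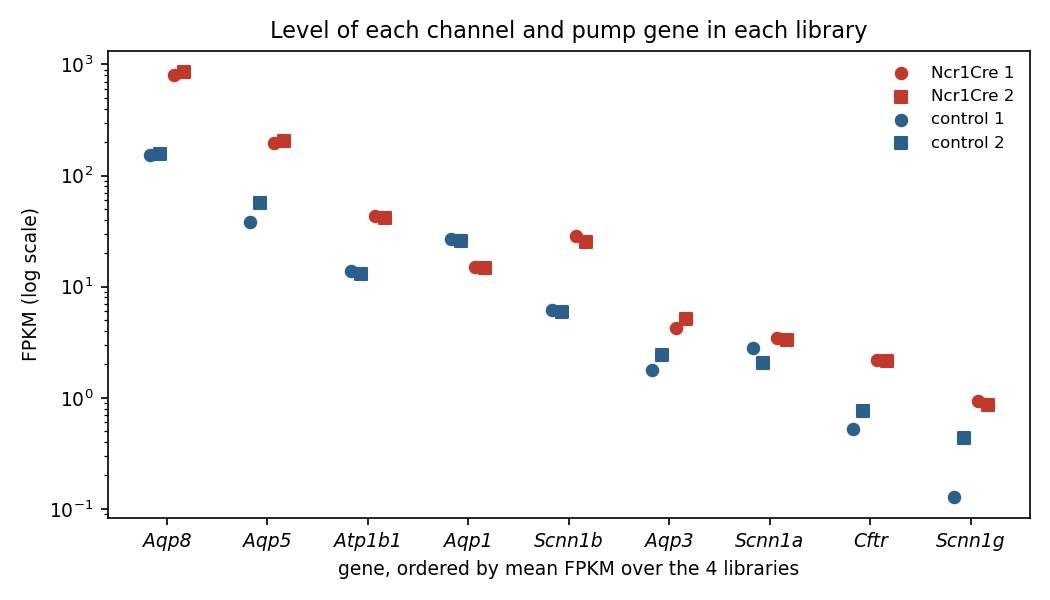
FPKM of the 9 channel and pump genes in each of the 4 libraries, on a log axis, with control libraries in blue and Ncr1Cre libraries in red (circles for replicate 1, squares for replicate 2). Aqp8 stands highest in each library, from 154 to 856 FPKM, and Aqp1 is the gene in which both control libraries lie above both Ncr1Cre libraries.

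The 250 bases before the RefSeq start of 4 of these genes are shown because the genes represent the range of the responses: Aqp8 with the largest rise, Scnn1b and Cftr as the sodium and chloride channels that rose, and Aqp1 with the fall. The sequences are from RefSeq (mouse build GRCm38.p6, a newer build than the mm9 of the expression files) and are written 5′ to 3′ on the strand of the gene. Entries matched 8 of the 9 genes by symbol, all but Scnn1a. The bases after the start were found in a GENCODE vM21 transcript of the gene for 7 of the 8 but not for Aqp1, whose start is therefore less sure, and 3 bases of the Aqp8 window are exonic there. Capitals mark matches to the motifs searched for, on either strand, and neighbouring matches can overlap. The GC box was searched as GGGCGG and the ETS-type site as AGGAAG. For the TATA box the letters used were TATAAA. The CCAAT box was searched by its name's letters, and the FOX site as TGTTTAC. The cyclic AMP response element TGACGTCA, its shorter form TGACG, which it contains, and the oestrogen response element (its palindromic consensus) were searched for too.
Aqp8, chr7:123462044-123462293, plus strand: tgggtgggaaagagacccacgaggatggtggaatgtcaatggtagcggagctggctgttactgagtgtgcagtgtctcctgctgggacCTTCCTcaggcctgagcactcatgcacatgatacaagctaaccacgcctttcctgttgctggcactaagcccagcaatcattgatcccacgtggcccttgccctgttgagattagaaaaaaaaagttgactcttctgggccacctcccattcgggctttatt
Scnn1b, chr7:121864788-121865037, plus strand: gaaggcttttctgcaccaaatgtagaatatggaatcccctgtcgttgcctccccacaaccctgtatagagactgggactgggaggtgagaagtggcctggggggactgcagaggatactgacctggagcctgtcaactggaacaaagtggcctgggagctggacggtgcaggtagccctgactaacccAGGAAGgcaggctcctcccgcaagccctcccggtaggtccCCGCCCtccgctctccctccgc
Cftr, chr6:18170437-18170686, plus strand: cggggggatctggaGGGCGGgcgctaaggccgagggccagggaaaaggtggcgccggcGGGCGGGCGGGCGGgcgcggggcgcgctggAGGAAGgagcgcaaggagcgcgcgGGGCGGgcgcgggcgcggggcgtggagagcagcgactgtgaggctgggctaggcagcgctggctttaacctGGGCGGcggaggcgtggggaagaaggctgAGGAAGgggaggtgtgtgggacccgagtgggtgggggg
Aqp1, chr6:55336049-55336298, plus strand: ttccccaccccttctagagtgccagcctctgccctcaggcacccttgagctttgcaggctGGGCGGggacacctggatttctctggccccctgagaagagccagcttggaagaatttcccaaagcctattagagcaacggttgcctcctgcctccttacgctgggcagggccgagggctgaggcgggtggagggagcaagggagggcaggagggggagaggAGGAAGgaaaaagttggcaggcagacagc

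The GC box was present in the windows of 7 of the 8 matched genes, and it stands in the same window of 32.7% of all 32851 RefSeq starts. Among the 7 is Aqp5, of whose window 246 of 250 bases are exonic in GENCODE vM21, so this window is mostly transcript and not sequence upstream of it. Aqp8 was the gene without it, and its window had the lowest GC content of the 8, 52.4%. Cftr held 6 matches to the GC box, of which 3 overlap, in a window of 76.4% GC. The ETS-type site was found for Aqp8, Scnn1b, Cftr and Aqp1, 4 of 8, against 29.5% of all starts. The TATA box was found for Aqp3 and the CCAAT box for Atp1b1, 1 gene each, against 12.4% and 33.8% of all starts. The letters of the FOX site, of either form of the cyclic AMP response element and of the oestrogen response element were in none of the 8 windows, and in 3.17%, 1.55% (TGACGTCA), 17.8% (TGACG) and 0.0639% of all starts. Aqp1, which fell, and Scnn1b and Cftr, which rose, each held both the GC box and the ETS-type site.

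Among the water channels, Aqp8, which also passes hydrogen peroxide and ammonia, was the most abundant. Its level was 807 and 856 FPKM with Cre and 154 and 156 in the controls. Both Ncr1Cre libraries were far above both controls, a 5.36-fold difference of the means (log2 fold change 2.41 on the log2(FPKM + 1) scale, SE 0.063, adjusted p = 0.000126). Aqp5, the water channel of gland and airway epithelia, was at 198 and 204 FPKM in Ncr1Cre and at 38.2 and 56.3 in control. The controls differed from each other by more than the Ncr1Cre libraries did, but did not reach them, and the means differed 4.26-fold (log2 fold change 2.09, SE 0.18, adjusted p = 0.000992). Aqp3, an aquaglyceroporin that also passes glycerol, was far lower, at 4.26 and 5.10 FPKM in Ncr1Cre and 1.76 and 2.42 in control. It rose 2.24-fold (log2 fold change 0.88, SE 0.15, adjusted p = 0.00807).

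Aqp1, a water channel found in capillary endothelium and red blood cells among other cells, went the other way. It stood at 15.1 and 14.7 FPKM in Ncr1Cre and at 26.6 and 25.7 in control. Replicates lay close together, and the control mean was 1.76-fold above the Ncr1Cre mean (log2 fold change -0.77, SE 0.073, adjusted p = 0.00124). Several marker lists moved in these libraries. All 6 smooth-muscle markers fell, from 550 and 543 summed FPKM in control to 180 and 177 in Ncr1Cre. Des made up most of the Ncr1Cre sums, at 144 and 143 FPKM, and fell 1.74-fold. The other smooth-muscle markers fell between 5.98-fold (Tagln) and 13.6-fold (Actg2). All 10 stromal markers and all 5 mesothelial markers fell too. Mesothelial markers, led by Msln and Upk3b, summed to 257 and 245 FPKM in control and to 85.1 and 80.8 in Ncr1Cre. Of 6 tested endothelial markers out of 8, 3 rose and 1, Tek, fell. Endothelial sums were 31.4 and 31.1 FPKM in Ncr1Cre and 17.2 in each control, a difference carried mostly by Cdh5. Cdh5 was at 13.4 and 13.8 FPKM in Ncr1Cre against 3.09 and 3.27 in control. The 7 erythroid markers summed to 18.8 and 20.3 against 1.39 and 1.53. The 3 erythroid markers that were tested, Hbb-y, Hba-x and Alas2, reached the filter only through the Ncr1Cre libraries, so their calls are not counted here. The part of these cell types in the fall of Aqp1 was not tested, and in bulk libraries fewer cells of a type and less RNA per cell cannot be told apart.

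CFTR, the anion channel, was low but higher in the Ncr1Cre libraries. Cftr was at 2.18 and 2.12 FPKM there and at 0.53 and 0.77 in control. The Ncr1Cre libraries were close to each other and both lay above the controls, a 3.33-fold difference of the means (log2 fold change 0.94, SE 0.12, adjusted p = 0.00346). At the estimated depth these levels stand for about 358 and 302 fragments in Ncr1Cre and 128 and 101 in control. On the log2(FPKM + 1) scale the change of so low a gene is understated, and with a pseudocount of 0.1 its log2 fold change was 1.61.

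The subunits of ENaC differed in level and in how far they changed. Scnn1b, the beta subunit, was at 28.5 and 25.1 FPKM in Ncr1Cre and at 6.13 and 5.86 in control. The genotypes were far apart, with a 4.47-fold rise (log2 fold change 1.99, SE 0.096, adjusted p = 0.000251). Scnn1a, the alpha subunit, was at 3.47 and 3.30 FPKM in Ncr1Cre and 2.80 and 2.07 in control. The controls were lower without overlap, but the difference did not pass (log2 fold change 0.36, 95% confidence interval 0.0060 to 0.72, SE 0.14, adjusted p = 0.0858), and it passed in none of its 10 alternatives (adjusted p 0.0542 to 0.312). Scnn1g, the gamma subunit, was at 0.94 and 0.86 FPKM in Ncr1Cre and at 0.13 and 0.43 in control, which stands for about 73 and 58 fragments against 15 and 27. Both controls were lower but far apart from each other. With no filter on low values the log2 fold change of Scnn1g was 0.58 (SE 0.13, limma adjusted p = 0.0343). That value, on the log2(FPKM + 1) scale, understates the change of so low a gene, as the means differed 3.20-fold.

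Atp1b1, the beta subunit of the Na/K-ATPase that epithelia carry on the blood-facing side, was at 43.1 and 41.3 FPKM in Ncr1Cre and at 13.9 and 13.1 in control. Replicates lay close together and the means differed 3.12-fold (log2 fold change 1.57, SE 0.076, adjusted p = 0.000251). In the newer annotation used here for lengths, 575 exon bases of Atp1b1, 18.7% of its exon bases, are shared with Nme7 on the opposite strand. Reads there cannot be assigned without knowing the strand, which the sources used here do not give, so the level of Atp1b1 is uncertain to that extent. Nme7 was at 3.36 and 3.98 FPKM in Ncr1Cre and at 4.0 and 4.94 in control, the reverse order. Cftr shares 1.66% of its exon bases with an antisense transcript, Gm15592.

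In the Ncr1Cre libraries the levels ran, from high to low, Aqp8, Aqp5, Atp1b1, Scnn1b, Aqp1, Aqp3, Scnn1a, Cftr and Scnn1g. No neighbours in this order overlapped between replicates. In the control libraries Aqp1 stood above Atp1b1 and Scnn1b. There Scnn1a (2.80 and 2.07) and Aqp3 (1.76 and 2.42) overlapped, so their order in control is not resolved.

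The make-up of each family differed between the genotypes as well. Aqp8 made up 78.7% and 79.2% of the summed FPKM of 12 aquaporins in Ncr1Cre and 69.8% and 64.8% in the controls. The share of Aqp1 was 1.47% and 1.36% against 12% and 10.7%, and that of Aqp5 overlapped (19.3% and 18.9% against 17.3% and 23.4%). The 12 aquaporins together were at 1050 ± 38.9 FPKM in Ncr1Cre and 231 ± 14.4 in control. Among ENaC subunits Scnn1b took 86.6% and 85.7% in Ncr1Cre and 67.6% and 70.1% in control. The ratio of Scnn1b to Scnn1a was 8.21 and 7.59 in Ncr1Cre and 2.19 and 2.83 in the controls. Atp1b1 made up 38.2% and 36.8% of the beta subunits of the pump in Ncr1Cre and 18.7% and 16.4% in control, while Atp1b3 was the larger part in all 4 libraries. These shares are a description and were not tested. With 2 libraries against 2, the smallest p of an exact permutation test of a share would be 0.33.

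**Figure D2:**
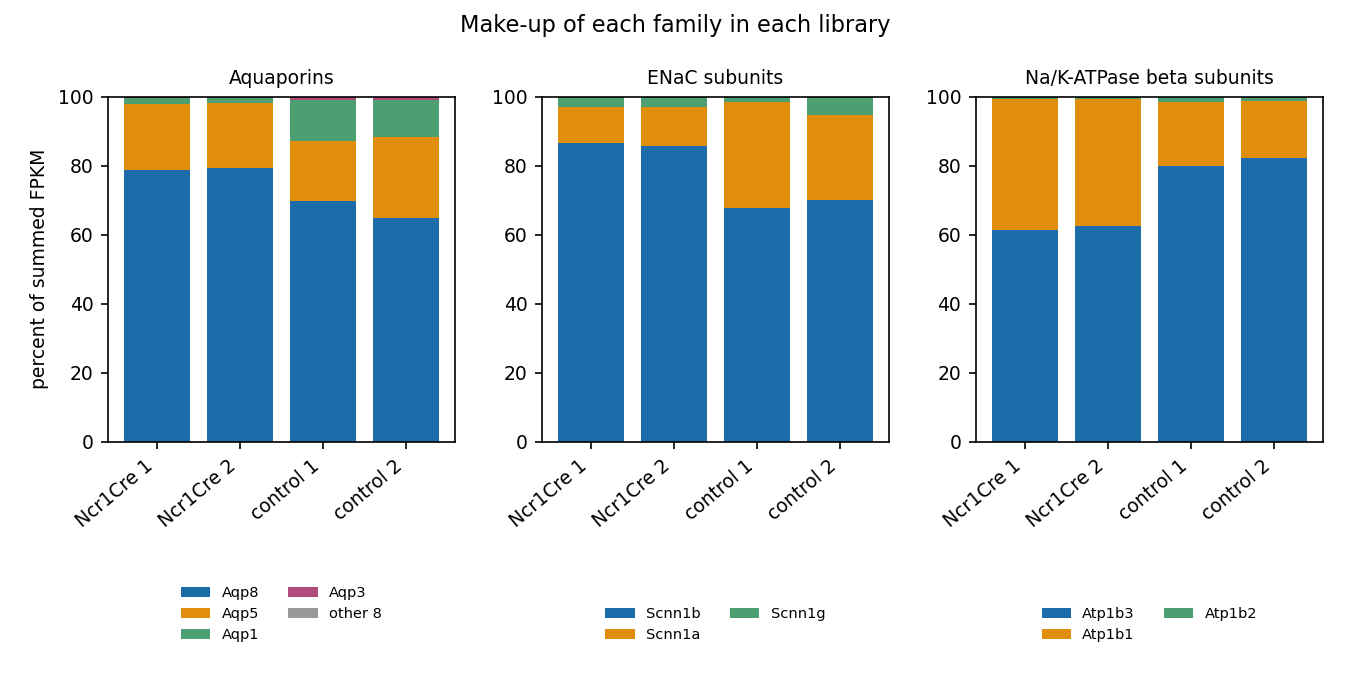
Percent of summed FPKM taken by each gene within 12 aquaporins, 3 ENaC subunits and 3 beta subunits of the Na/K-ATPase, with 1 bar per library. Aqp8, Scnn1b and Atp1b1 take larger shares in both Ncr1Cre libraries, and Aqp1, Scnn1a and Atp1b3 take larger shares in both controls.

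The other genes of luminal fluid transport moved in both directions. Of 70 genes in 5 lists, 46 were tested, and 20 rose, 14 fell and 12 did not pass, with a median log2 fold change of 0.03. The counts of each list stand beside the 30.9% higher and 17.6% lower among all tested genes, and nothing particular to a list is read from them. Na/K-ATPase subunits and their FXYD partners were split, with 3 of 8 tested genes higher and 4 lower (5 of the 13 in the list were not tested). Atp1b3 did not pass, at 69.6 ± 0.75 and 62.7 ± 4.29 FPKM (adjusted p = 0.161). Fxyd3, a regulator of the pump in epithelia, rose from 21.9 ± 2.81 to 88.7 ± 7.90, and Fxyd4 from 9.26 ± 0.52 to 27.6 ± 3.55. Fxyd6 fell from 33.4 ± 2.77 to 14.9 ± 0.76, Fxyd1, the form of muscle, from 171 ± 13.0 to 104 ± 5.49 and Fxyd5 from 66.5 ± 6.76 to 46.2 ± 2.32. None of the 8 other aquaporins reached 1 FPKM. Mip and Aqp12 were listed at 0 in all libraries, and Aqp2, the aquaporin of the kidney collecting duct, was the highest of the 8 in the Ncr1Cre libraries at 0.44 and 0.64 FPKM.

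Of 14 tested regulators of ENaC, 7 rose and 3 fell, or 7 and 5 after median rescaling (median log2 fold change 0.46). The membrane-bound serine proteases that cleave and activate the channel or activate one another were among them: Tmprss4 rose from 68.8 ± 1.56 to 365 ± 6.78 FPKM, St14 from 20.4 ± 0.99 to 114 ± 3.78 and Prss8 from 9.09 ± 0.59 to 37.8 ± 0.35. Spint1 and Spint2, which inhibit such proteases, rose as well, from 20.1 ± 0.29 to 98.6 ± 0.80 and from 109 ± 4.38 to 557 ± 40.5. Sgk1, the kinase that keeps ENaC in the membrane, rose 2.03-fold to 234 ± 3.32, and Nedd4l, the ubiquitin ligase that removes it, rose 1.81-fold to 11.6 ± 0.78. Hsd11b2, which inactivates glucocorticoid in cells that respond to aldosterone, fell from 1183 ± 19.4 to 483 ± 3.96. Its log2 fold change was -1.29 (SE 0.057, limma adjusted p = 0.00022). Nr3c2, the gene of the aldosterone receptor, stayed below the filter, at 0.66 and 0.15 FPKM in Ncr1Cre and 0.18 and 0.17 in control. Tsc22d3 and Wnk1 fell with smaller steps, from 46.4 ± 2.30 to 34.2 ± 4.03 and from 19.7 ± 1.36 to 14.7 ± 0.25. Tsc22d3 lost its call without Ncr1Cre replicate 1 and without either control replicate (adjusted p 0.0636, 0.0538 and 0.0905). Wnk1 lost it without Ncr1Cre replicate 2 and without control replicate 1 (adjusted p 0.0532 and 0.0762).

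Genes of chloride and bicarbonate secretion and the potassium channels that balance them were mixed. Of 18 tested secretion genes, 6 rose and 5 fell, or 6 and 9 after median rescaling (median log2 fold change -0.16), with the share of rises near the 30.9% of all tested genes. Slc26a4, an exchanger of chloride for bicarbonate or iodide, rose from 2.14 ± 0.18 to 19.6 ± 0.53 FPKM. Car2, a carbonic anhydrase that supplies bicarbonate, rose from 14.0 ± 2.88 to 69.1 ± 7.73, the chloride channel Clcn2 from 8.85 ± 0.54 to 23.4 ± 0.92, and Ezr, which anchors membrane proteins to actin, from 81.0 ± 1.37 to 192 ± 6.81. Slc12a2, which loads chloride into secreting cells, rose from 5.96 ± 0.02 to 11.7 ± 1.11. Ano1, a calcium-activated chloride channel that smooth muscle also carries, fell from 15.5 ± 0.96 to 7.92 ± 0.75, and Slc4a4, a sodium bicarbonate cotransporter, from 5.30 ± 0.11 to 2.67 ± 0.01. Slc26a6 (3.62 ± 0.59 to 2.16 ± 0.25) and Slc9a3r2 (24.8 ± 5.22 to 15.9 ± 0.49) fell as well. Slc26a6 lost its call without Ncr1Cre replicate 1 (adjusted p = 0.0724) and without control replicate 2 (adjusted p = 0.11), and Slc9a3r2 without Ncr1Cre replicate 1 (0.0517) and without control replicate 1 (0.0522). Of 6 tested potassium channel genes, 4 rose and 2 fell. Kcne2, an auxiliary subunit, rose from 11.9 ± 0.22 to 54.8 ± 0.63, Kcnk1 from 26.2 ± 1.73 to 100.7 ± 3.49 and Kcnq1 from 1.10 ± 0.11 to 3.85 ± 0.05. Kcnk5 fell from 17.8 ± 1.29 to 9.20 ± 0.56 and Kcnma1, a channel of smooth muscle, from 4.74 ± 0.57 to 2.40 ± 0.49, the latter with an adjusted p of 0.0575 without control replicate 1. Kcnn4, the calcium-activated potassium channel, which reached the filter only through the Ncr1Cre libraries, rose from 0.74 ± 0.40 to 2.09 ± 0.31, with an adjusted p of 0.0195 and of 0.0535 without control replicate 2.

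**Figure D3:**
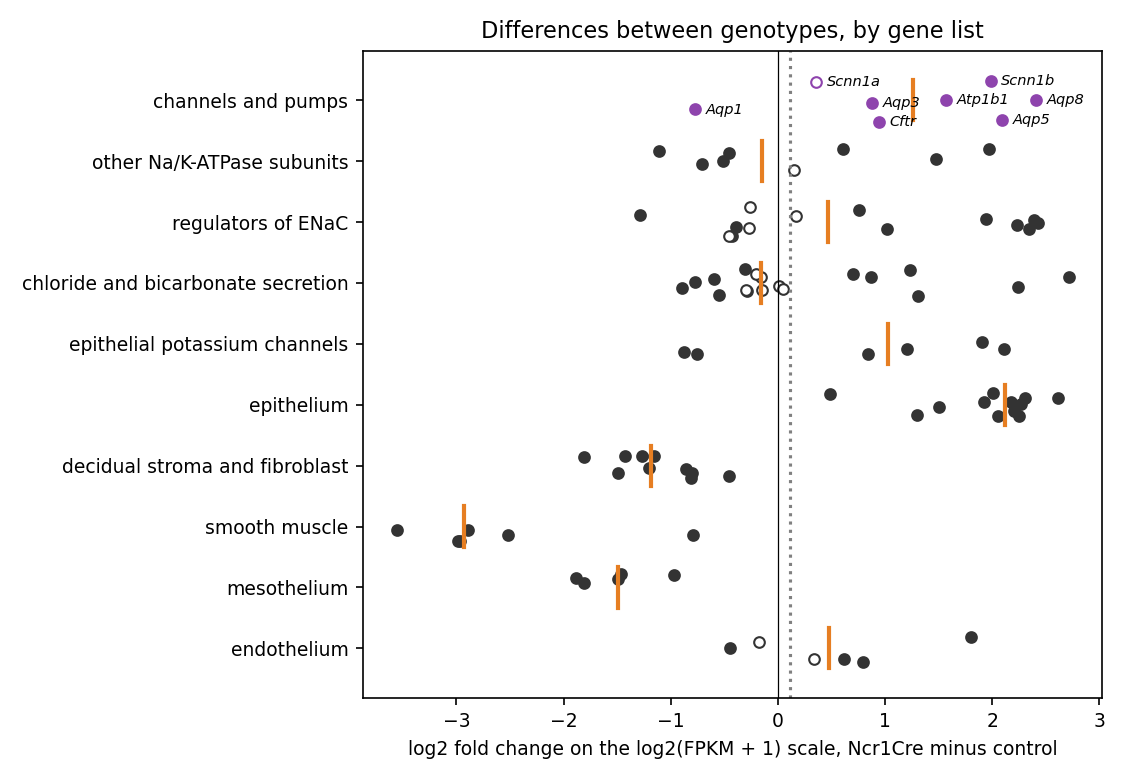
Log2 fold change of each tested gene (Ncr1Cre minus control, on the log2(FPKM + 1) scale) by gene list, with the channel and pump genes in purple, filled points for genes that passed limma, open points for those that did not, orange bars for list medians and a dotted line for the median of all tested genes (0.11). The channel and pump genes run from -0.77 (Aqp1) to 2.41 (Aqp8), and the 12 epithelial markers have a median of 2.12.

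The epithelial markers rose in the same libraries, 12 of 12, and their summed FPKM was 3.92-fold higher in Ncr1Cre. Set beside this sum, the genes separated. Per 1000 FPKM of the 12 markers in the same library, Aqp8 was at 346 and 368 in Ncr1Cre and 256 and 267 in control, and Scnn1b at 12.2 and 10.8 against 10.2 and 10.0. These were the 2 genes that stayed higher without overlap, by factors of 1.37 and 1.14. Aqp5 (85.0 and 87.8 against 63.4 and 96.3), Cftr (0.94 and 0.91 against 0.88 and 1.31) and Scnn1g (0.40 and 0.37 against 0.21 and 0.74) overlapped between the genotypes. Atp1b1 was lower per marker FPKM in Ncr1Cre (18.5 and 17.8 against 23.1 and 22.3), and so were Aqp3 (1.83 and 2.19 against 2.92 and 4.15) and Scnn1a (1.49 and 1.42 against 4.65 and 3.54). Aqp1 was 6.89-fold lower on this scale, at 6.47 and 6.31 against 44.1 and 44.0. These quotients are a description with no test, they depend on the markers chosen, and the part of epithelial cells in the differences was not tested. With Epcam alone as the denominator, Scnn1b overlapped between the genotypes (234 and 206 per 1000 FPKM against 221 and 200) and Cftr was lower in Ncr1Cre without overlap (17.9 and 17.5 against 19.1 and 26.1).

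**Figure D4:**
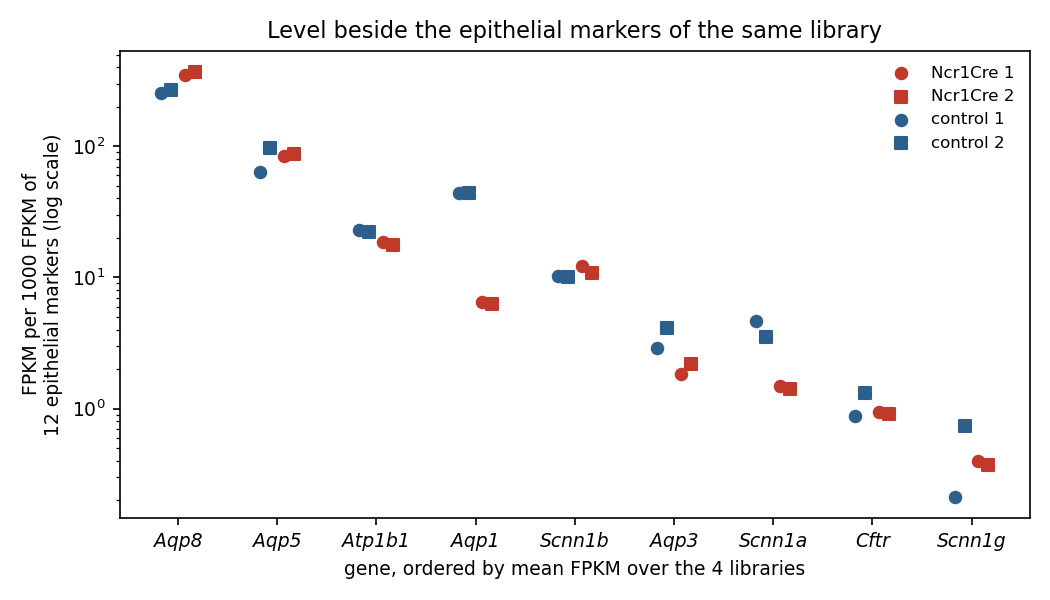
FPKM of each gene per 1000 FPKM of the 12 epithelial markers of the same library, on a log axis, with control libraries in blue and Ncr1Cre libraries in red. Both Ncr1Cre libraries lie above both controls for Aqp8 and Scnn1b and below them for Atp1b1, Aqp1, Aqp3 and Scnn1a.

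Other marker lists rose in these libraries too. Trophoblast markers, led by Tpbpa, Prl3b1 and Prl7a2, summed to 941 and 1064 FPKM in Ncr1Cre and to 313 and 354 in control, with 5 of 5 tested of 8 higher and Gcm1 listed at 0 throughout. Markers of yolk sac endoderm, led by Rbp4, Afp and Apoa1, summed to 70.4 and 73.7 FPKM against 16.6 and 17.1, with 4 of 4 tested of 7 higher, of which Amn reached the filter only through the Ncr1Cre libraries. Rbp4 made up most of the control sums, at 12.8 and 13.9 FPKM, and rose 2.27-fold. Cubn, which was not tested, overlapped between the genotypes at 0.082 and 0.056 FPKM against 0.064 and 0.071. Macrophage markers, led by Cd14, Cd68 and Lyz2, summed to 86.8 and 87.1 against 25.4 and 27.3, with 4 of 4 tested of 7 higher. Lyz2 rose 1.56-fold, less than Cd14 (5.08-fold) and Cd68 (4.76-fold). The 3 untested macrophage markers, Adgre1, Cd163 and Mrc1, were at 0.54 FPKM or lower in each library. Their part in the rises of the channel and pump genes was not tested.

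For each of the 8 tested genes, the genes outside the lists with the nearest profile were found as those with the smallest root mean square difference in centred log2(FPKM + 1). With only 4 libraries many genes come close, so likeness carries little weight. The nearest to Aqp8 were Mapk13 (54.2 and 56.3 against 9.20 and 9.18 FPKM, difference 0.029) and Ltf (710 and 767 against 130 and 138, difference 0.032). Scnn1b was nearest to Atp13a4 (difference 0.010) and Trpm6 (0.017), and Cftr to Lpar6 (0.013) and Skap1 (0.015). Atp1b1 was nearest to Neurl3 (0.017) and to the glucose transporter gene Slc2a1 (0.019). Aqp1, with the closest match of all at 0.0023, was nearest to Extl3 (8.30 and 8.05 against 14.9 and 14.4 FPKM) and then Pltp (0.0070). Aqp3 was nearest to Pts (0.022) and Zfp260 (0.025), and Scnn1a to Ppox and Ldb1 (both 0.013). For Aqp5, whose controls differ, the nearest genes, 4930415O20Rik (0.094) and Slc5a3 (0.096), were less close.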

How the data were processed

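The deposited values are FPKM per gene and library, made by the authors with Cufflinks on build mm9 per the submitters' processing notes. Its version is not given in the sources used here, nor are the aligner, annotation and strand setting. Gene models for lengths and overlaps came from GENCODE vM21 (GRCm38), so their coordinates were not used for the expression values. Fragment totals were estimated from low values of single-transcript genes that came out whole within 0.02 fragments (36.6% to 39.7% of them). No count test was run on these estimates. After adding a pseudocount of 1 and taking log2, the 11762 genes whose mean reached 1 FPKM were tested two-sided by limma (3.58.1, R 4.3.3) with a trend on intensity. Both the test and the depth search were tested on simulated data. Replicates share only a number (correlation of replicate differences over genes 0.161). The genes and lists were chosen with earlier results of these data known. Named genes were all 9 genes, up to 4 called genes per list and direction by smallest p, Atp1b3, Slc12a2, Sgk1, Nedd4l, Prss8 and Kcnn4. Markers among the 3 highest of their list, Ncr1, Klrb1c, Ptprc and the 2 nearest profiles per tested gene were named too. Gcm1, Amn, Cubn, Adgre1, Cd163, Mrc1, Epcam, Nr3c2, Slc9a2, Slc26a9, Slc26a3, Fxyd2, Atp1b2 and the low aquaporins were named after their values were seen. Nme7 and Gm15592 were named for their overlap. Alternatives were another pseudocount, filter or scaling, a replicate block, no trend and leaving out each library. The rest of the genotype and a few genes of the lists are not reported here.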

Additional observations from a re-analysis of the deposited data

How the results depend on the processing

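The calls of the 9 genes held throughout: the 7 called genes kept direction and call in every alternative that tested them, including both rescalings, the replicate block (6 higher and 1 lower) and each left-out library, where a lone library is assumed to vary like the others. The size rule counted 4 to 6 of them. Cftr is 1 of the 7 and reached the filter only through the Ncr1Cre libraries, so its held call is no independent support. At a mean of at least 5 FPKM, Cftr and Aqp3 were not tested. The median log2 fold change of all tested genes was 0.11, with shifts to -0.046 (libraries rescaled to a common median) and -0.054 (quantile normalization). The tested channel and pump genes all moved down under both, by amounts that differed between genes. Cftr went from 0.94 to 0.84 and 0.70, and Aqp8 from 2.41 to 2.23 and 2.30. The 5709 calls over all genes (3638 higher, 2071 lower) became 2662 higher and 3037 lower after median rescaling, 2613 and 3028 after quantile normalization, 6004 in all with the replicate block, and 4092 to 5034 without 1 library, of which 1354 to 1883 were lower, with 1354 without control replicate 1. Lower calls among regulators of ENaC numbered 5 under both rescalings, and those among secretion genes 9 after median rescaling, 3 at a mean of at least 5 FPKM, where fewer genes were tested, and 3 to 4 without 1 library. Potassium channel genes counted 2 higher and 1 lower at that filter, and 1 to 2 lower without 1 library. With no filter, 10 secretion genes and 2 other aquaporins were higher. Per epithelial marker FPKM, the log2 ratio of Ncr1Cre to control with Epcam alone and without Krt8, Krt18 and Krt19 was 0.066 and 0.057 for Scnn1b (0.19 with all markers), -2.91 and -2.92 for Aqp1 (-2.79), 0.33 and 0.32 for Aqp8 (0.45) and -0.45 and -0.46 for Atp1b1 (-0.33). For Aqp5 it was 0.11 with all markers and -0.013 without Krt8, Krt18 and Krt19. The cause of these shifts was not tested.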

Other observations

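Several transporters of fluid secretion had a mean below the filter of 1 FPKM over the 4 libraries and were not tested. Slc9a2, an apical sodium-proton exchanger, was at 1.85 and 1.51 FPKM in Ncr1Cre and at 0.15 and 0.21 in control. Slc26a9, a chloride channel of airway and stomach epithelium, was at 0.22 and 0.17 FPKM in Ncr1Cre and was listed at 0 in both controls. Among the low aquaporins, Aqp2 was at 0.052 and 0.19 FPKM in control, and Aqp11 at 0.26 and 0.36 in Ncr1Cre against 0.039 and 0.13. Other listed genes below the filter were lower in Ncr1Cre without overlap. Fxyd2 was at 0.18 and 0.31 FPKM in Ncr1Cre against 0.91 and 0.68 in control. Atp1b2 was at 0.72 and 0.72 against 1.14 and 1.09, and Slc26a3 at 0.025 and 0.030 against 0.080 and 0.105. At the estimated depth, 1 fragment on a transcript of 1 kb stands for 0.026 to 0.048 FPKM. The Slc26a3 values, and others here of that size, therefore rest on few fragments. Lack of overlap was common, at 76.2% of all tested genes.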
